A study of Mus musculus with 8 samples.

Results

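The opioid system of the dorsal root ganglion (DRG) was followed through 7 genes, the 4 opioid receptors Oprk1, Oprd1, Oprm1 and Oprl1 and the 3 opioid peptide precursors Penk, Pdyn and Pnoc. They were chosen by symbol as the receptors and precursors of the family, out of 55414 gene IDs counted, and all 7 were among the 17721 genes that passed the filter on low counts and were tested. Transcripts were measured by bulk RNA-seq of DRG from mouse embryos at E18.5, close to birth, with 4 libraries in each of 2 groups. AD1 OE embryos had the genotype AdvillinCre/+;Rosa26Dach1/+, and Control embryos had the genotype Advillin+/+;Rosa26Dach1/+. The Rosa26Dach1 allele, present in every embryo, carries a Dach1 copy behind a stop cassette that Cre removes, and Dach1 encodes a transcriptional regulator that most somatosensory neurons switch off during development. The comparison addresses what happens to the transcripts of these neurons when Dach1 is expressed again in all of them.

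The model has limits that apply to every value below. Cre is produced from the Advillin locus, which is active in postmitotic somatosensory neurons, and it was present in AD1 OE alone, so that Cre itself, the altered Advillin allele and Dach1 cannot be told apart. Mice with the Rosa26Dach1 allele were of mixed C57Bl/6J and CD1 background, Dach1 followed its normal decline before it was re-expressed, and AD1 OE pups died around birth. Dach1 and Avil matched the labels in every library, with Dach1 at 91.5 to 102 CPM (counts scaled to the library's total) in AD1 OE and 30.2 to 33.7 CPM in Control, and Avil at 450 to 478 CPM in AD1 OE and 840 to 919 CPM in Control. The libraries held 22339059 to 44025625 counts, with no difference in total between the groups by an exact two-sided permutation test (p = 0.8286, where 0.0286 is the smallest p that 4 against 4 allows). Xist and Y-linked genes divided the libraries unevenly by sex, with 1 female in AD1 OE (replicate 3) and 3 in Control (replicates 1 to 3). The study describes its replicates of this comparison as embryos, and each group held both sexes, while the labels do not tie a library to an embryo. Sensory neuron markers were abundant, with a sum over 7 genes of 4154 to 4344 CPM in AD1 OE and 4338 to 4585 CPM in Control. None of these 7 genes was called by edgeR or by DESeq2, while 1 was lower at an unadjusted p under 0.05 (10.3% of all tested genes).

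Opioid receptors are G protein-coupled receptors that act through inhibitory G proteins, lowering adenylyl cyclase activity, opening inwardly rectifying potassium channels and closing presynaptic calcium channels, so that a sensory neuron that carries them releases less transmitter in the dorsal horn. Their ligands are cut from larger precursors: proenkephalin (Penk) gives the enkephalins, which bind the delta and mu receptors, prodynorphin (Pdyn) gives the dynorphins, which favour the kappa receptor, and prepronociceptin (Pnoc) gives nociceptin, the ligand of the nociceptin receptor. In adult DRG the mu and kappa receptors are best known from nociceptors, the neurons that detect damaging stimuli, and the receptors in these neurons are targets of analgesic drugs.

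The precursors differ in how many opioid peptides they encode, and the coding stretches below show examples of the ligands that belong to each receptor. Each stretch starts at a peptide core and was read in frame from the GENCODE M21 transcripts (GRCm38). Capitals mark the 12 bases of the core, which encode Tyr-Gly-Gly-Phe in Penk and Pdyn and Phe-Gly-Gly-Phe in Pnoc.
Penk, Met-enkephalin, copy 2: TACGGAGGCTTCatgaagaagatggacgag
Penk, Leu-enkephalin, copy 6: TATGGGGGCTTCctgaagcgctttgctgag
Pdyn, dynorphin A: TATGGGGGCTTCctgcggcgcattcgcccc
Pdyn, dynorphin B: TATGGTGGTTTCctgcggcgtcagttcaag
Pnoc, nociceptin: TTTGGGGGCTTCaccggggcccggaaatca

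All of these lie on the minus strand, within coding exons. The Penk stretches are in exon 2 at chr4:4134298-4134327 and chr4:4133926-4133955, those of Pdyn in exon 4 at chr2:129688115-129688144 and chr2:129688058-129688087, and that of Pnoc in exon 3 at chr14:65404863-65404892. Penk held 7 copies of its core over 268 codons, 6 followed by methionine and 1 by leucine. Pdyn held 3 copies over 248 codons, all followed by leucine, and Pnoc held 1 copy over 212 codons. The encoded residues of the core are shared by enkephalins and dynorphins, while its bases vary between some copies. After the core, the printed Leu-enkephalin and dynorphin stretches share the codon for leucine and differ further on.

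Oprk1 was the opioid gene that passed the call used here, which requires a Benjamini-Hochberg adjusted p under 0.005 together with a log2 fold change over 0.25 in size, the limits that the study applied. It fell to 40.3% of its Control level (2.49-fold lower). Oprd1 was at 150.5% of its Control level, with no overlap between the groups, but stayed outside the threshold. The other receptors and the 3 precursors were not called. Among the 7 genes, 1 was called lower and 0 were called higher by edgeR, against 1.78% and 0.784% of all tested genes. DESeq2 called 1 lower and 1 higher, against 2.42% and 1.29% of all tested genes, and at an unadjusted p under 0.05 by edgeR 2 were lower and 1 was higher, against 10.3% and 8.28%. The groups did not overlap in the lower direction for 2 of the 7 genes (7.26% of all tested genes) and in the higher direction for 1 (5.69% of all tested genes). The median log2 fold change of the 7 genes was -0.23, that of all tested genes 0.00. The plots of CPM by library and of fold change by gene show these patterns.

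**Figure D1:**
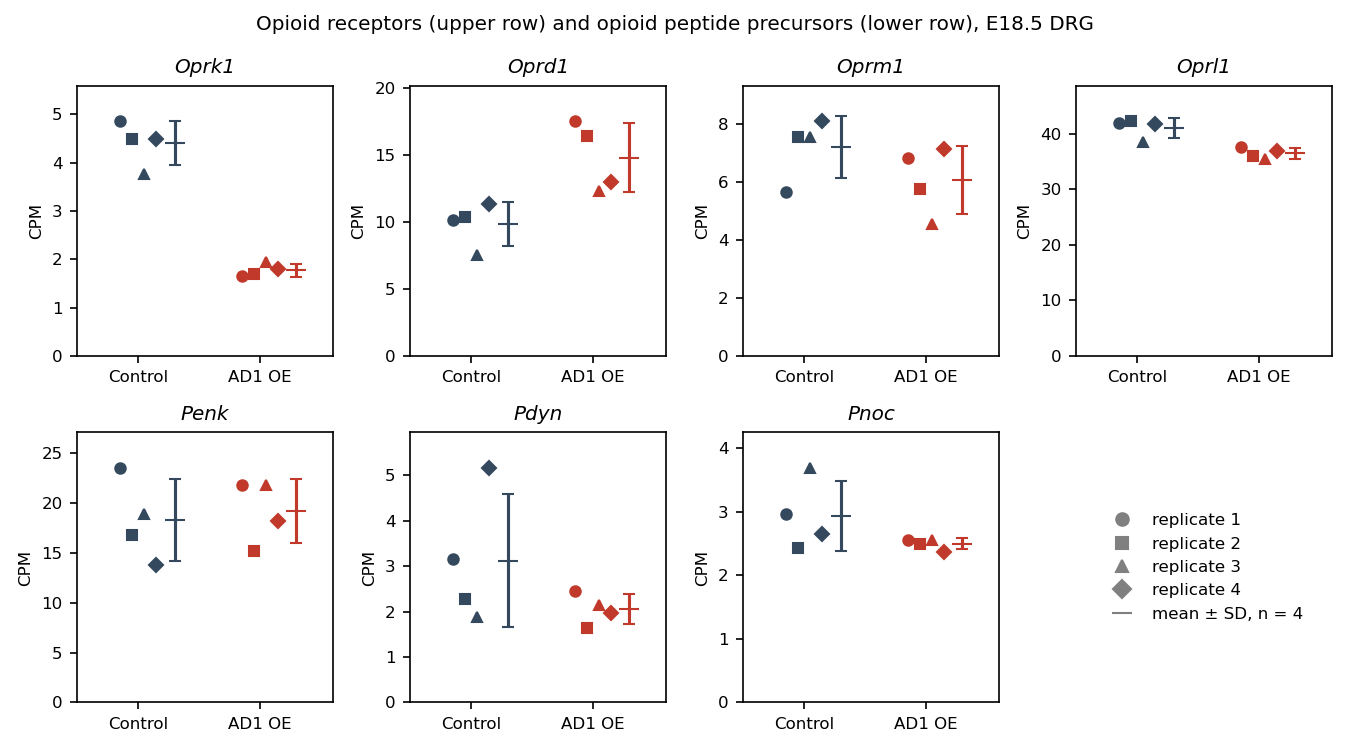
Level of each opioid gene (CPM, linear axis from 0) in Control (dark) and AD1 OE (red), with 1 point per library, a symbol per replicate number and the mean ± SD (n = 4) beside the points. Oprk1, Oprl1 and Oprd1 separate the groups, with Oprk1 at 1.65 to 1.95 CPM in AD1 OE and 3.77 to 4.86 CPM in Control, while Oprm1 and the 3 precursors overlap.

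**Figure D2:**
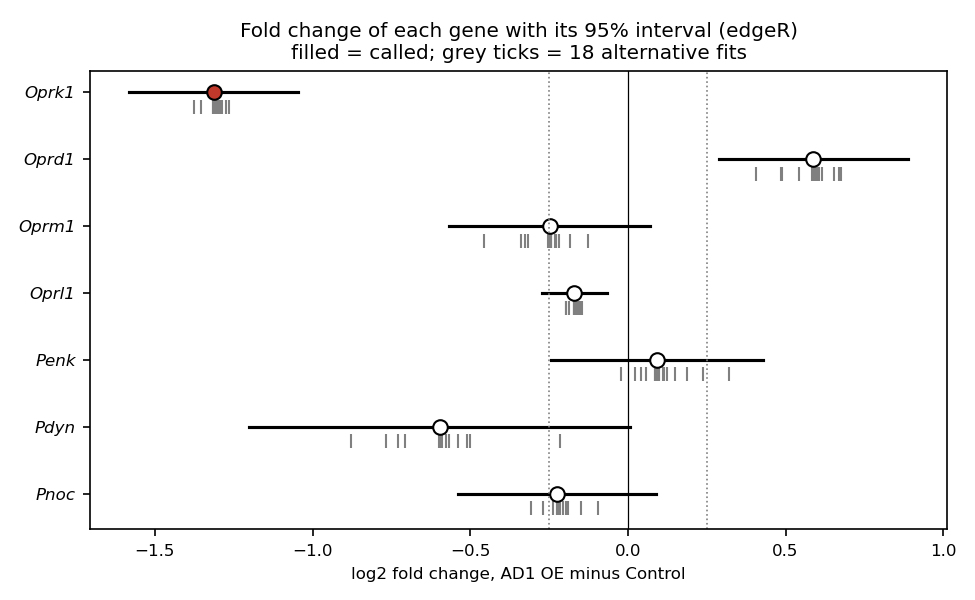
Log2 fold change of each opioid gene (AD1 OE minus Control) with its 95% interval from edgeR, where the filled point was called, dotted lines mark 0.25 in each direction and grey ticks show the values of 18 alternative fits. Oprk1 stands at -1.31 with every alternative between -1.38 and -1.26, and Penk is the gene whose alternatives lie on both sides of 0.

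Oprk1 (ENSMUSG00000025905, chromosome 1) encodes the kappa receptor, through which dynorphins inhibit primary afferents. Its level was 1.65, 1.69, 1.95 and 1.80 CPM in AD1 OE replicates 1 to 4, and 4.86, 4.49, 3.77 and 4.49 CPM in Control replicates 1 to 4. Every AD1 OE library lay well below every Control library, and the AD1 OE libraries were close to each other. The means were 1.77 ± 0.134 CPM and 4.40 ± 0.455 CPM (SD, n = 4), which rested on 38 to 73 counts per library in AD1 OE and 96 to 159 in Control. The log2 fold change was -1.31 ± 0.12 (SE, 95% interval -1.58 to -1.05), with an adjusted p of 4.145e-05 by edgeR's quasi-likelihood test, and it ranked 46th in size among the 316 genes called lower. Oprk1 was called in 18 of 18 alternative fits, with adjusted p from 1.376e-12 to 0.0006376. The study names Oprk1 from these same libraries, so its call here is not independent evidence of the direction. In bulk tissue, fewer cells that express a gene and less RNA per cell cannot be told apart.

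The difference in Oprk1 was present within each sex. Between females, where AD1 OE has 1 library, the log2 ratio of mean CPM was -1.16, and between males, where Control has 1 library, it was -1.39. Markers of peptidergic nociceptors moved with it: 3 of 6 genes were called lower (4 lower and 0 higher at an unadjusted p under 0.05), and their summed level was 1161 to 1248 CPM in AD1 OE and 1455 to 1489 CPM in Control, without overlap. Non-peptidergic nociceptor genes were mixed, with 3 of 6 called lower, 4 lower and 2 higher at an unadjusted p under 0.05, and sums that overlapped, at 1823 to 1969 CPM in AD1 OE and 1755 to 2011 CPM in Control. Of all tested genes 1.78% were called lower, and at an unadjusted p under 0.05 10.3% were lower and 8.28% higher. No gene of either marker list was at 0 in every library. Calca, of the peptidergic list, is among the genes that the study names from these libraries. The part of these classes in the change of Oprk1 was not tested.

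Over the 8 libraries, the log2 CPM of Oprk1 was most like that of Nap1l4 (a histone chaperone, Pearson r = 0.992), Khdrbs3 (an RNA-binding splicing regulator, r = 0.992), Tspan17 (a tetraspanin, r = 0.991) and Lgals3 (galectin 3, r = 0.989), among 10721 genes with at least 10 CPM on average. The libraries share their group difference, which enters each r, so these values describe likeness only. The decreases differed widely in size, from a log2 fold change of -0.17 for Khdrbs3, which was not called (adjusted p = 0.02175), and -0.18 for Nap1l4, which was not called because of its size, to -0.52 for Tspan17 and -1.96 for Lgals3, which were called.

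Oprd1 (ENSMUSG00000050511, chromosome 4) encodes the delta receptor, which responds to enkephalins. Its level was 17.5, 16.4, 12.3 and 12.99 CPM in AD1 OE replicates 1 to 4, and 10.1, 10.4, 7.55 and 11.3 CPM in Control replicates 1 to 4. All AD1 OE libraries lay above all Control libraries, with a narrow gap between AD1 OE replicate 3 and Control replicate 4. The means were 14.8 ± 2.56 CPM and 9.85 ± 1.62 CPM (SD, n = 4). The log2 fold change was 0.59 ± 0.14 (SE, 95% interval 0.29 to 0.89) with an adjusted p of 0.02403 by edgeR, outside the threshold of 0.005. DESeq2 called it (adjusted p = 0.000842), as did edgeR without a filter on low counts (adjusted p = 2.547e-05). With sex in the model its adjusted p was 0.1404 at a log2 fold change of 0.41, the highest adjusted p of the 18 alternatives. Within females the log2 ratio of mean CPM was 0.40 and within males 0.47.

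Oprm1 (ENSMUSG00000000766, chromosome 10) encodes the mu receptor, the main target of morphine. It stood at 6.85, 5.75, 4.55 and 7.16 CPM in AD1 OE and at 5.67, 7.57, 7.55 and 8.11 CPM in Control, in the order of the replicates. The groups overlapped, since Control replicate 1 lay below AD1 OE replicates 1, 2 and 4. The log2 fold change was -0.25 ± 0.15 (SE, 95% interval -0.57 to 0.07) with an adjusted p of 0.4061, and the interval leaves room for a decrease as well as for no change. Within females the log2 ratio of mean CPM was -0.61 and within males -0.30, with no overlap of libraries in either sex, but with 1 library of AD1 OE or of Control in each. With sex in the model the log2 fold change was -0.46 (adjusted p = 0.1194), and without AD1 OE replicate 3 it was -0.13 (adjusted p = 0.6294).

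The exons of Oprm1 overlap those of Ipcef1 on the opposite strand, and no source used here says whether the counting was stranded, so that reads of the 2 genes may be mixed and the value of Oprm1 is uncertain. Ipcef1 was at 3.80, 4.01, 2.64 and 1.76 CPM in AD1 OE and at 5.27, 6.04, 7.31 and 6.30 CPM in Control, in the order of the replicates. All AD1 OE libraries were below all Control libraries, with a log2 fold change of -1.02 ± 0.21 (SE) and an adjusted p of 0.01106 by edgeR, which was not called. The order of the AD1 OE libraries differed between the 2 genes, with replicate 4 highest for Oprm1 and lowest for Ipcef1.

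Oprl1 (ENSMUSG00000027584, chromosome 2) encodes the nociceptin receptor. It stood at 37.7, 36.0, 35.5 and 37.0 CPM in AD1 OE and at 42.0, 42.3, 38.5 and 41.7 CPM in Control, in the order of the replicates. The groups did not overlap, with Control replicate 3 lowest in Control and just above AD1 OE replicate 1. The means were 36.5 ± 1.00 CPM and 41.1 ± 1.78 CPM (SD, n = 4), a small difference between narrow groups. Its log2 fold change was -0.17 ± 0.05 (SE, 95% interval -0.27 to -0.07) with an adjusted p of 0.05704, and no alternative called it (adjusted p from 0.03717 to 0.1606).

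The composition of the receptor transcripts was then compared per length, as CPM per kilobase of exon, each receptor as a share of the sum of all 4. Oprl1 made up most of it, at 67.9% ± 2.89 in AD1 OE and 74.2% ± 1.71 in Control (SD, n = 4). Oprd1 took 25.5% ± 3.01 and 16.5% ± 1.82, Oprm1 5.24% ± 0.866 and 6.10% ± 0.973, and Oprk1 1.36% ± 0.188 and 3.25% ± 0.213. The shares of Oprk1 and Oprl1 in AD1 OE lay below all Control shares, that of Oprd1 lay above them, and that of Oprm1 overlapped, as the plot of receptor shares shows. Shares within a library add up to a fixed total, so a larger share of Oprd1 lowers the others, and these differences are not separate results. The summed level of the 4 receptors overlapped, at 14.4 ± 0.899 CPM per kilobase in AD1 OE and 14.8 ± 0.896 CPM per kilobase in Control.

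**Figure D3:**
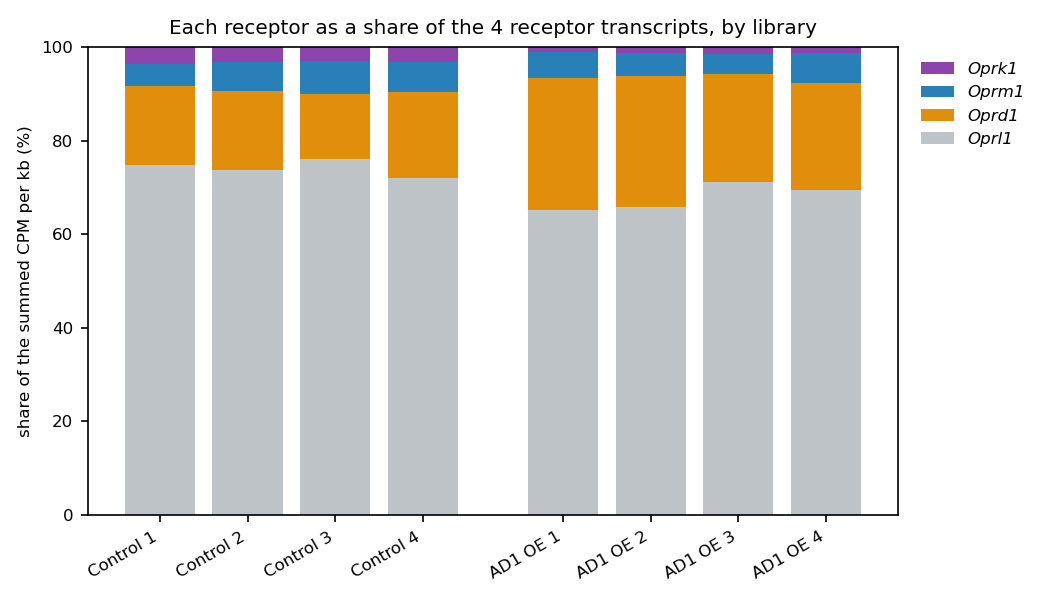
Share of each receptor (percent of the summed CPM per kilobase of the 4 receptors, stacked from 0 to 100) in each Control and AD1 OE library. Oprd1 takes 13.9 to 18.2% in Control and 22.8 to 28.2% in AD1 OE, and Oprk1 takes 3.06 to 3.55% and 1.17 to 1.604%.

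Penk (ENSMUSG00000045573, chromosome 4) encodes the precursor of the enkephalins. It was at 21.8, 15.2, 21.8 and 18.2 CPM in AD1 OE and at 23.5, 16.8, 18.9 and 13.7 CPM in Control, in the order of the replicates. The lowest and the highest library were both Control, and the AD1 OE libraries lay between them. The log2 fold change was 0.09 ± 0.15 (SE, 95% interval -0.24 to 0.43) with an adjusted p of 0.811, and its sign turned without Control replicate 4 (log2 fold change -0.02, adjusted p = 0.9602). Its largest value was that with sex in the model, a log2 fold change of 0.32 (adjusted p = 0.3299). An antisense gene that shares its exons, A830012C17Rik, had 1 to 6 counts per library.

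Pdyn (ENSMUSG00000027400, chromosome 2) encodes the precursor of the dynorphins, the ligands of the kappa receptor. It was at 2.46, 1.65, 2.14 and 1.98 CPM in AD1 OE and at 3.15, 2.27, 1.89 and 5.17 CPM in Control, in the order of the replicates. Control replicates 1 and 4 were above all other libraries, and the other Control libraries lay within the AD1 OE range. The log2 fold change was -0.60 ± 0.28 (SE, 95% interval -1.20 to 0.01) with an adjusted p of 0.2747. Without Control replicate 4 it was -0.21 (adjusted p = 0.6548). Within females the log2 ratio of mean CPM was -0.19, and within males, where Control replicate 4 is the Control library, it was -1.35.

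The 2 Control libraries that were high in Pdyn also had the highest summed level of marker genes of the spinal cord. This is a tissue beside the ganglia whose dorsal horn expresses Pdyn. Of 14 spinal cord marker genes 11 were tested and 0 were called by edgeR or DESeq2. At an unadjusted p under 0.05, 3 were lower and 1 was higher (10.3% and 8.28% of all tested genes). None of the 14 was at 0 in every library. Their sum was 55.6 to 61.3 CPM in AD1 OE and 45.0 to 69.8 CPM in Control, and most of it was Zic1. Without Zic1, a gene left out after its values were seen, the sum of the remaining 13 was 9.81, 9.80, 14.1 and 11.98 CPM in AD1 OE and 31.0, 8.32, 12.4 and 21.1 CPM in Control, in the order of the replicates. Olig1 and Slc6a5, among others, were highest in Control replicates 1 and 4, but not every marker followed. Pax8 was lowest in Control replicate 1, Lmx1b was highest in Control replicate 3 and Gbx1 in AD1 OE replicate 4. Control replicate 1 had more of the markers than replicate 4 but less Pdyn. Control replicate 1 also had the highest sum of 6 sympathetic neuron markers, 14.6 CPM against at most 3.86 CPM elsewhere. Control replicates 1 and 4 were also left out together, a choice made after seeing the data. They were the 2 libraries highest in Pdyn, so a smaller difference in Pdyn follows from the choice itself. The log2 fold change of Pdyn was then 0.00 ± 0.21 (SE, adjusted p = 0.9997 by edgeR), which cannot tell where its RNA came from. That of Oprk1 in the same fit was -1.22 ± 0.15 (SE, adjusted p = 0.001417 by edgeR), and Oprk1 remained called. The part of spinal cord RNA in the Pdyn values was not tested.

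**Figure D4:**
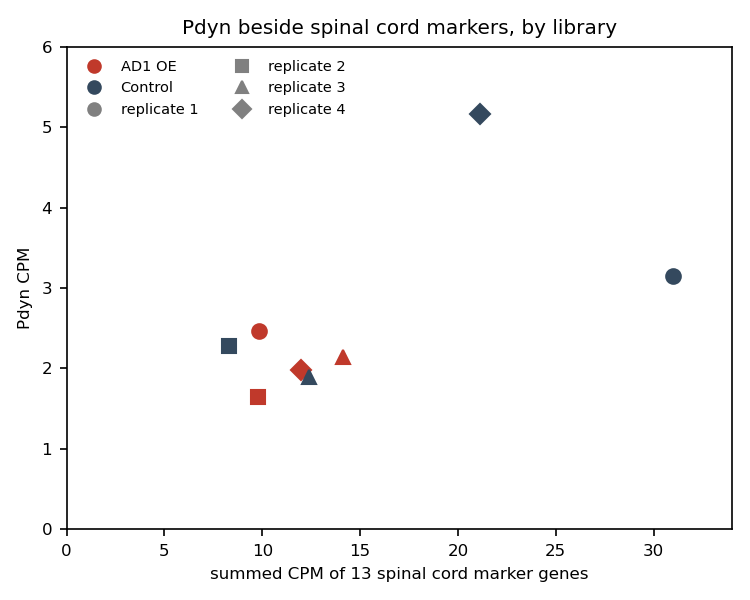
Level of Pdyn (CPM) against the summed CPM of 13 spinal cord marker genes (Zic1 left out) in each library, Control dark and AD1 OE red, a symbol per replicate number. Control replicates 1 and 4, at 3.15 and 5.17 CPM of Pdyn and 31.0 and 21.1 CPM of the markers, stand apart from the other 6 libraries.

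Pnoc (ENSMUSG00000045731, chromosome 14) encodes the precursor of nociceptin. It was at 2.56, 2.50, 2.56 and 2.38 CPM in AD1 OE and at 2.97, 2.43, 3.69 and 2.66 CPM in Control, in the order of the replicates. The AD1 OE libraries were tightly grouped, and Control replicate 2 lay among them. The log2 fold change was -0.22 ± 0.14 (SE, 95% interval -0.54 to 0.09) with an adjusted p of 0.4487. Without Control replicate 3, the highest library, it was -0.09 (adjusted p = 0.787), and with sex in the model it was -0.15 (adjusted p = 0.7867).

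Per length, Penk and Oprl1 were the most abundant of the 7 transcripts in both groups. In Control the mean levels were 11.2 CPM per kilobase for Penk, 11.0 for Oprl1, 2.45 for Oprd1, 1.36 for Pnoc, 1.08 for Pdyn, 0.899 for Oprm1 and 0.481 for Oprk1. Libraries overlapped between Penk and Oprl1, between Pnoc and Pdyn and between Pdyn and Oprm1, and these neighbours cannot be ordered. In AD1 OE the levels were 11.8 CPM per kilobase for Penk, 9.74 for Oprl1, 3.69 for Oprd1, 1.16 for Pnoc, 0.756 for Oprm1, 0.713 for Pdyn and 0.194 for Oprk1. Here the ranges of Penk and Oprl1 and those of Oprm1 and Pdyn overlapped. By this measure Oprk1 was the least abundant of the 7 in both groups, and its ligand precursor Pdyn was above it in every library. The length was that of all annotated exons merged, 9151 bases for Oprk1 and 2887 for Pdyn, and the order depends on it. By CPM alone, Oprk1 averaged 4.40 and Pdyn 3.12 in Control, and 1.77 and 2.06 in AD1 OE. The 3 precursors summed to 13.6 ± 2.10 CPM per kilobase in AD1 OE and 13.6 ± 2.41 CPM per kilobase in Control (SD, n = 4).

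The genes that make and remove opioid peptides and carry the receptor signal were followed in 8 lists, 48 genes in all, of which 46 were tested and the potassium channel subunits Kcnj5 and Kcnj6 were under the filter, at 0 to 10 counts per library. Of the 46, 3 were called lower and 1 was called higher (1.78% and 0.784% of all tested genes), and the median log2 fold change was -0.04. The groups did not overlap for 10 genes in the lower direction, 21.7% of the 46 against 7.26% of all tested genes, and for 3 in the higher direction, 6.52% against 5.69%. Beside the 4 called genes, the 2 with the next lowest p are described.

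The 6 genes of precursor processing had a median log2 fold change of -0.06. Of these 1 was called lower and 0 higher (1.78% and 0.784% of all tested genes). The gene was Pcsk2, a prohormone convertase that cuts prodynorphin and proenkephalin to their final peptides. It was at 154, 154, 155 and 150 CPM in AD1 OE and at 208, 218, 214 and 212 CPM in Control, in the order of the replicates. The groups were far apart compared with their spread, with a log2 fold change of -0.47 ± 0.03 (SE) and an adjusted p of 2.857e-06 by edgeR, and Pcsk2 was called in 18 of 18 alternatives. Antisense genes that overlap Pcsk2 were low, at most 3.03 CPM for Pcsk2os1 and 0.550 CPM for Pcsk2os2.

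The 5 genes of peptide breakdown had a median log2 fold change of -0.07. Of these 1 was called lower and 0 higher (1.78% and 0.784% of all tested genes). Mme, the membrane peptidase neprilysin that cuts enkephalins, was at 23.9, 22.1, 19.2 and 24.6 CPM in AD1 OE and at 30.1, 33.2, 38.6 and 36.9 CPM in Control, in the order of the replicates. The AD1 OE libraries lay below all Control libraries, with a log2 fold change of -0.63 ± 0.09 (SE) and an adjusted p of 0.001172 by edgeR. Mme was called in 16 of 18 alternatives.

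Of 4 other ligands and receptors 1 was called lower and 0 higher (1.78% and 0.784% of all tested genes). Mrgprx1, a receptor of itch- and pain-sensing neurons that binds a peptide cut from proenkephalin but is no opioid receptor, was at 69.6, 75.7, 63.0 and 87.9 CPM in AD1 OE and at 149, 181, 168 and 165 CPM in Control, in the order of the replicates. Every Control library lay far above every AD1 OE library, with a log2 fold change of -1.17 ± 0.09 (SE) and an adjusted p of 8.732e-06 by edgeR, called in 18 of 18 alternatives. Mrgprx1 belongs to a family of near-identical genes, between which the counting may have divided reads. Pomc, the precursor of beta-endorphin, had few reads, at 7 to 31 counts per library in AD1 OE and 15 to 21 in Control.

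Of 8 genes in the list of RGS proteins, 0 were called lower and 1 was called higher (1.78% and 0.784% of all tested genes). RGS proteins shorten G protein signals, and the list also held Gnb5, which encodes a G protein beta subunit. Rgs9 was at 19.1, 15.2, 15.2 and 16.6 CPM in AD1 OE and at 9.77, 12.2, 12.4 and 9.57 CPM in Control, in the order of the replicates. The groups did not overlap, with a log2 fold change of 0.59 ± 0.11 (SE) and an adjusted p of 0.004651 by edgeR, just inside the threshold. Rgs9 was called in 9 of 18 alternatives (highest adjusted p 0.01698). Rgs14 was lower in all AD1 OE libraries, at 6.82 to 7.84 CPM against 9.22 to 10.1 CPM, but was not called (log2 fold change -0.37, adjusted p = 0.009933 by edgeR). In this list 4 genes were lower and 1 was higher at an unadjusted p under 0.05, and DESeq2 called 1 higher. At that p 10.3% of all tested genes were lower and 8.28% higher, and DESeq2 called 1.29% higher.

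The lists of G protein subunits, channel and cyclase effectors, desensitisation and trafficking held no called gene by edgeR. Of 5 inhibitory G protein subunits 4 were lower at an unadjusted p under 0.05 and 0 were called by DESeq2, with log2 fold changes from -0.18 to 0.02. At that p 10.3% of all tested genes were lower and 8.28% higher, and DESeq2 called 2.42% lower and 1.29% higher. Of 9 tested effectors 1 was lower and 3 were higher at that p, and DESeq2 called 1 higher. Of 6 genes of desensitisation (receptor kinases and arrestins) 2 were lower and 1 was higher, and DESeq2 called 1 lower. Of 3 trafficking genes 1 was lower, and DESeq2 called 0. Adcy5, an adenylyl cyclase that inhibitory G proteins act on, lay on the fold limit, at 92.0 to 106 CPM in AD1 OE and 112 to 124 CPM in Control (log2 fold change -0.25 ± 0.05, adjusted p = 0.007951 by edgeR), and was not called by any alternative.

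Under a looser rule, an adjusted p under 0.05 whatever the size, 10 of the 46 genes passed, 8 lower and 2 higher (4.14% and 2.42% of all tested genes). Those not yet described, named here after their values were seen, were Kcnj3, a subunit of the potassium channel that opioid receptors open (log2 fold change 0.36, adjusted p = 0.01716 by edgeR), Grk3, a receptor kinase (log2 fold change -0.27, adjusted p = 0.02542), Gnao1 (log2 fold change -0.18, adjusted p = 0.03908) and Gnai2 (log2 fold change -0.17, adjusted p = 0.04325), the last 2 encoding inhibitory G protein subunits. The plot of the 46 genes shows that most intervals lie close to 0.

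**Figure D5:**
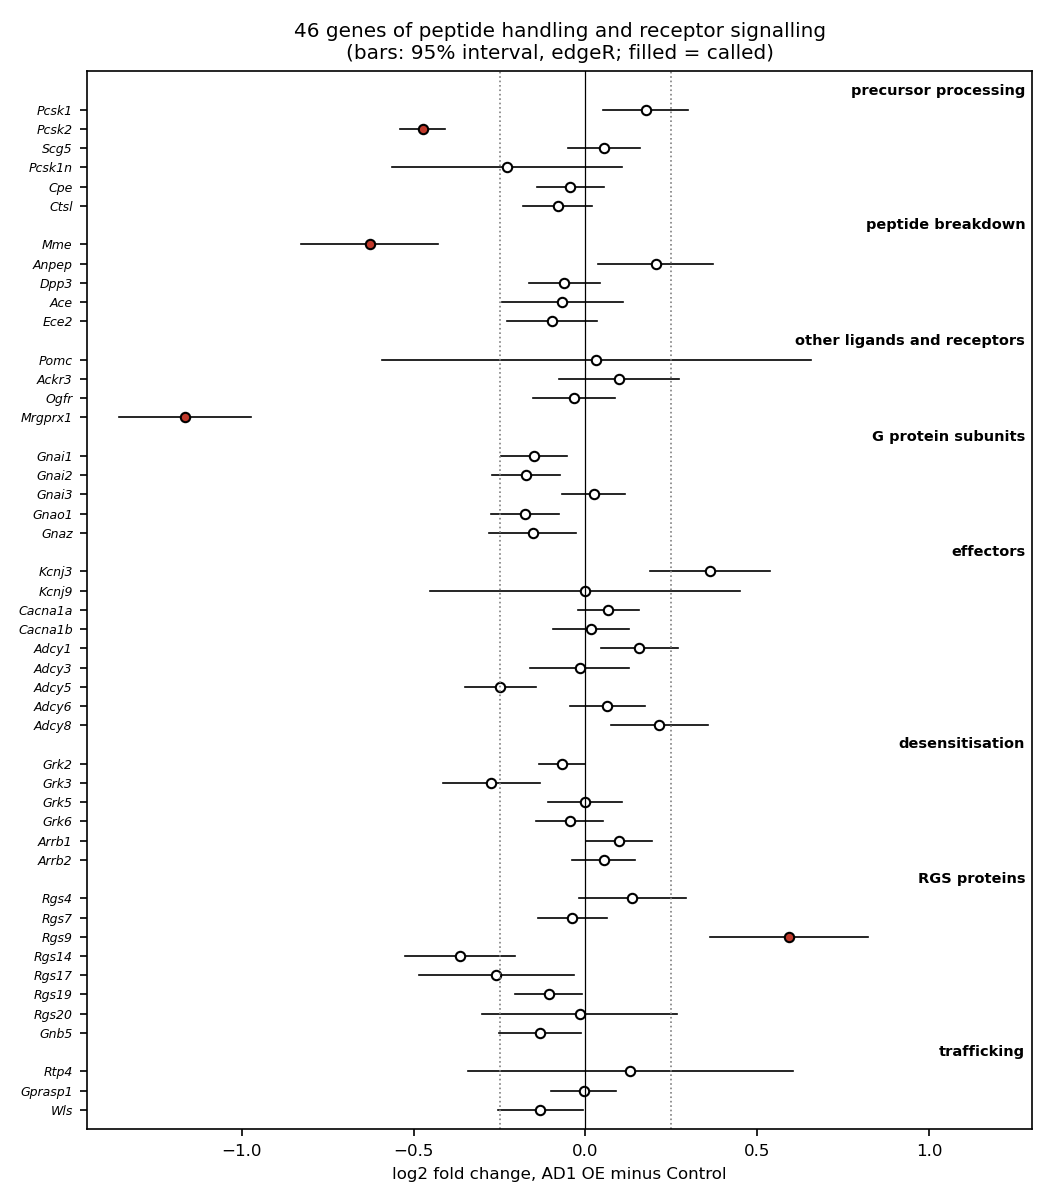
Log2 fold change (AD1 OE minus Control) of the 46 tested genes of peptide handling and receptor signalling, in 8 lists, with 95% intervals from edgeR, filled points for called genes and dotted lines at 0.25 in each direction. Pcsk2, Mme and Mrgprx1 were called lower and Rgs9 was called higher, and the remaining 42 were not called.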

How the data were processed

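Total RNA from DRG was made into stranded poly(A) libraries. The authors aligned the reads to GRCm39 with STAR 2.7.8a and summed them over Ensembl genes with featureCounts 2.0.1, and the deposited files hold 1 column of raw counts per library. Strand use in the counting is not given in the sources used here. Symbols, exon lengths and coding sequence came from GENCODE M21 (GRCm38, an older build). The coding stretches printed are examples, and the others are not reported here. Of 55414 IDs 52081 had a symbol, and 0 lines named no gene.

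Groups came from titles and genotypes. The 4 libraries per group were compared in edgeR 4.0.16 (R 4.3.3): filterByExpr, TMM scaling, quasi-likelihood test with genotype as the only term, Benjamini-Hochberg adjustment over the 17721 genes kept. A call required an adjusted p under 0.005 together with a log2 fold change over 0.25 in size, limits that the study applied to this comparison, with DESeq2, while its methods state 0.05 and 1. CPM used the TMM-scaled totals and are given as mean ± SD. Intervals are 95%, and no molecular identifiers were used. Total counts per library limit the precision for genes with low levels: at 1.77 CPM a gene had 38 to 73 counts.

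The 7 genes and all lists were chosen with earlier results of these data known. Named genes were the 7, pathway genes called or with the lowest p up to 6, the 4 genes most like a called member (log2 CPM with a prior count of 2), Dach1 and Avil, with markers as lists. Alternatives were DESeq2 1.42.0, limma-voom 3.58.1, robust empirical Bayes, upper-quartile, RLE or no composition scaling, no filter, 1 CPM in 4 libraries, a sex score, a replicate block and leaving out each library. Libraries of 1 group differed by more than counting noise (chi-square per degree of freedom 4.02 to 11.1 over 12 pairs), so none was a repeat sequencing of another. These values do not show whether the libraries came from separate embryos. The tests were checked on simulated data.

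Marker lists not described above gave these counts of genes called lower and higher: C-LTMR 1 and 1 of 4, A-LTMR and proprioceptor 1 and 0 of 6, and none of 6 glial, 7 fibroblast and meninges, 3 endothelial, 3 macrophage, 3 erythroid and 4 skeletal muscle genes. DESeq2 called 0 of these last 6 lists, and at an unadjusted p under 0.05 edgeR put 1 glial gene lower and, of the fibroblast and meninges genes, 1 lower and 3 higher. At the same p 1 A-LTMR and proprioceptor gene was lower and 2 were higher, and 2 C-LTMR genes were lower and 1 was higher. DESeq2 called 1 lower and 1 higher in each of these lists. The A-LTMR and proprioceptor sums overlapped, at 672 to 738 CPM in AD1 OE and 614 to 675 CPM in Control. Of all tested genes edgeR called 1.78% lower and 0.784% higher, and at an unadjusted p under 0.05 10.3% were lower and 8.28% higher. DESeq2 called 2.42% lower and 1.29% higher. Of 6 sympathetic genes 2 were tested and 0 were called.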

Additional observations from a re-analysis of the deposited data

Results flagged for a closer look

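Oprl1 in Control replicate 3 was at 38.5 CPM (38.48), while the other 3 Control libraries were at 41.7, 42.0 and 42.3 CPM. This library was set apart by a gap of 0.855 of the whole range of the group, above the 95% limit of Dixon's test for 4 libraries. Of 42 groups examined 1 was set apart in this way, and chance gives about 1 in 20. Without Control replicate 3 the log2 fold change of Oprl1 was -0.20 with an adjusted p of 0.04268 by edgeR, and it was not called.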

How the results depend on the processing

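Oprk1 kept its direction and its call under all 18 alternative fits. Oprd1 kept its direction in all 18 and passed the threshold with DESeq2 (log2 fold change 0.590) and without a filter on low counts (0.593). With DESeq2 1 of the 7 genes was called lower and 1 higher, against 2.42% and 1.29% of all tested genes. At an adjusted p under 0.05 by edgeR 1 was lower and 1 higher, against 4.14% and 2.42%. Without the filter 1 was called lower and 1 higher, in a fit that called 747 genes in all. Penk ranged from -0.023 to 0.237 when 1 library was left out, turned sign without Control replicate 4, and was 0.321 with the sex score. Oprm1, Oprl1, Pdyn and Pnoc kept their direction and were called in none of the 18.

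Pathway genes called numbered 10 at an adjusted p under 0.05, 8 lower and 2 higher, against 4.14% and 2.42% of all tested genes. With a log2 fold change over 1 added, 1 pathway gene passed. When 1 library was left out the number was 2 to 4, with 2 without AD1 OE replicate 2 and 2 without Control replicate 4. Genes called in all, 455, became 747 without a filter, 1161 at an adjusted p under 0.05, 129 with a log2 fold change over 1 added, 254 with Control replicates 1 and 4 left out (a choice made after seeing the data), and 289 to 420 when 1 library was left out, with 289 without AD1 OE replicate 1. Fewer libraries enter the fits that leave some out. The causes of the other shifts were not tested.

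The labels do not say whether replicate numbers pair the samples. The deviations of same-numbered libraries correlated at -0.054 to 0.313, and those of differently numbered libraries at -0.319 to 0.225. The highest value of all was that of the libraries numbered 4. With 4 libraries per group, these values cannot decide whether samples were paired. With a replicate block the log2 fold change of Oprk1 was -1.313 (adjusted p = 0.0006376), that of Oprd1 0.584 (adjusted p = 0.008928), and 348 genes were called. Oprk1, Pdyn and Pnoc rested on the fewest reads, 37 to 183 counts per library, and the interval of Pdyn is the widest of the 7.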
